A study of Homo sapiens with 4 samples.

Results

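Respiratory complex I was examined through its nuclear genes, taken as every row of the authors' deposited table whose gene symbol starts with NDUF. The rule picked 47 of 11597 listed genes, and all 47 are protein coding in GENCODE release 29. They comprise 37 subunits of the assembled complex, 8 assembly factors with NDUFAF symbols, and NDUFA4 and NDUFA4L2. NDUFA4 was named as a complex I subunit and is now assigned to complex IV, so the family name and the complex do not coincide for that pair. The cells were MOLM13, a human acute myeloid leukaemia line, with the genotype WT for the control libraries (Ctrl) and BTG2 OE for those given BTG2. The deposited comparison abbreviates the control as EV, read here as empty vector. Both groups are labelled as lentivirally infected. The constructs used an EF1α vector with puromycin resistance and ZsGreen, and cells were harvested 3 days after spin infection. Each group held 2 libraries of poly(A) RNA, 4 in all, and the labels mention neither selection of transduced cells nor separate cultures.

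Complex I is the first enzyme of the mitochondrial respiratory chain. It takes electrons from NADH, passes them along a flavin and a row of iron-sulphur clusters to ubiquinone, and couples this to proton pumping across the inner membrane. The catalytic core is split between both genomes: the subunits that carry the cofactors are nuclear, the pumping subunits of the membrane arm are mitochondrial, and a shell of accessory subunits, all nuclear, surrounds them. Acute myeloid leukaemia cells are known for their reliance on oxidative phosphorylation.

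Values for single libraries were not analysed here, and the spread between libraries enters only through the authors' standard error (SE) of each log2 fold change, which is positive where BTG2 libraries were higher. Depth per library is unknown. In the authors' deposited table BTG2 itself had a log2 fold change of 5.01 (SE 0.09), a 32.3-fold difference. Of 8 markers of the line 7 were listed, with CD14 the missing one, and of 9 markers of other cell types KRT18 and PECAM1 alone were listed, at mean normalized counts of 421 and 65.7. With BTG2, MPO (log2 fold change -1.14, SE 0.15) and LYZ (-0.39, SE 0.05) were lower and FLT3 (0.23, SE 0.07) higher by the authors' deposited table. CD33, ITGAM, CSF1R and PTPRC did not reach an authors' adjusted p under 0.05. The part of these markers in the values below was not tested. In bulk RNA, fewer cells of a kind and less RNA per cell cannot be told apart.

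Nuclear complex I transcripts differed little between the groups: most fold changes and their SEs were small, and 4 of 47 genes passed the test. Those SEs rest on 2 libraries a group and may reflect technical spread alone. A gene was called at an authors' adjusted p under 0.05 over all listed genes. By the authors' deposited table, NDUFA7 and NDUFA10, 2 of the 47, rose, or 4.26% against 3.64% of all listed genes. By the same rule in the authors' deposited table, 2 of the 47 fell, NDUFS3 among them, or 4.26% against 4.47% of all listed genes. These shares lie near those of all listed genes and are no result about the family. At an adjusted p limit of 0.01, 2 members were higher and 1 lower (all listed genes 2.42% and 2.94%), and at 0.1, 3 were higher and 5 lower (4.79% and 5.75%). With an absolute log2 fold change of at least 0.5 required as well, 2 were higher and 0 lower (1.91% and 1.43%), and in a test against that size 0 were higher and 0 lower (0.362% and 0.336%). After recentring on abundant genes, those at or above the median mean count, 3 were higher and 1 lower (4.31% and 3.73%). With a null distribution estimated from the statistics, 2 were higher and 1 lower (1.80% and 2.26%). With abundant genes alone tested, 2 of 41 were higher and 3 lower (6.91% and 8.98%). Among the 1944 listed genes whose mean count lay between the members' quartiles (464 and 2296), 6.22% rose and 12.0% fell. The members' shares of 4.26% lay below both, and with 2 calls each way the difference cannot be judged. The median log2 fold change of the 47 was -0.03, against 0.00 for all listed genes and -0.06 for those 1944. The full range ran from -0.30 for NDUFS3 to 0.62 for NDUFA7.

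**Figure D1:**
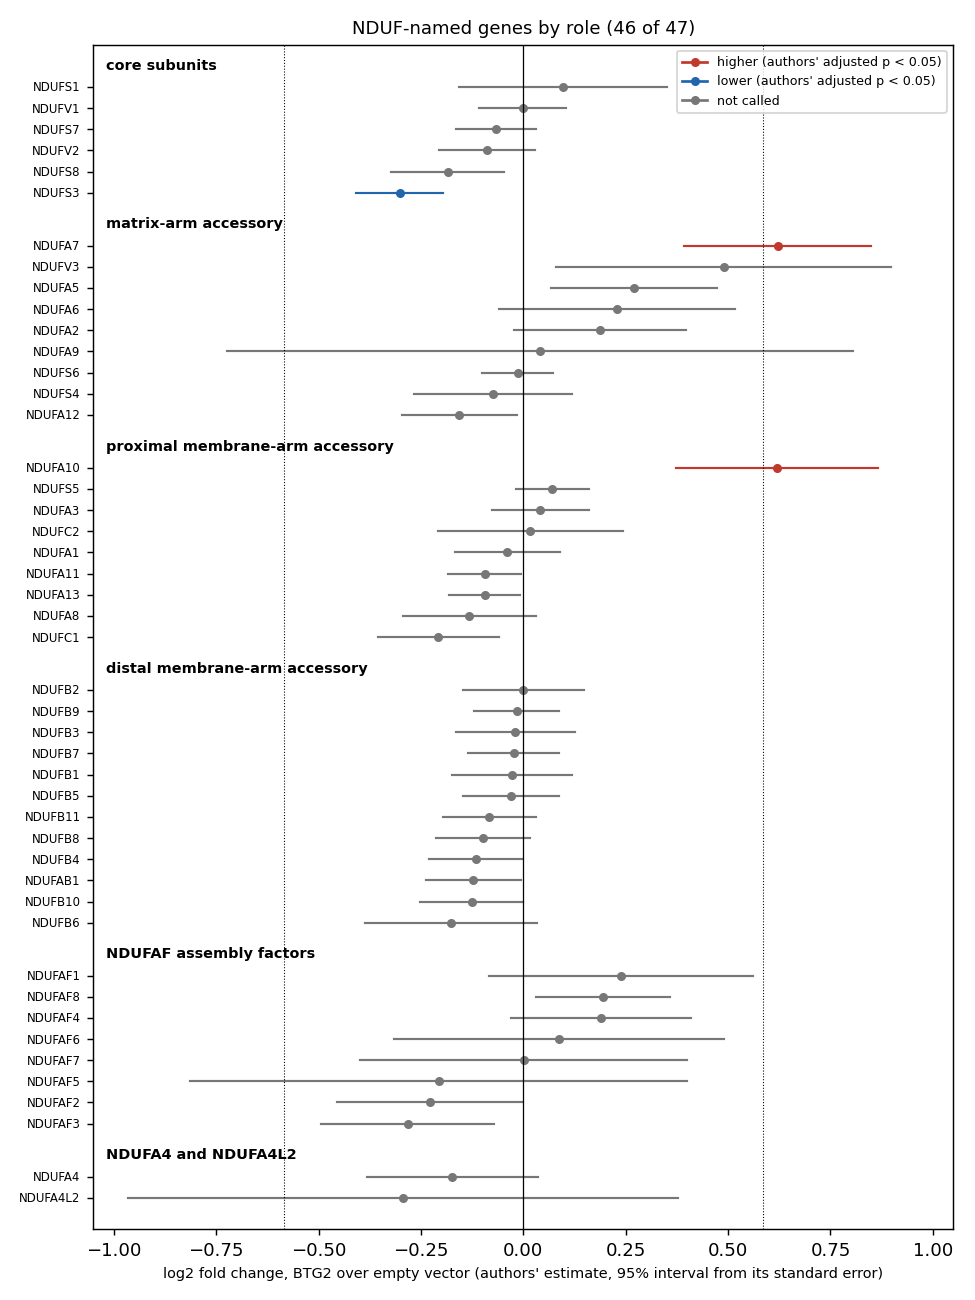
The log2 fold change of BTG2 over empty vector (x axis) for 46 of the 47 NDUF-named genes, grouped by role, with bars for the 95% interval from the authors' standard error and dotted lines at 1.5-fold either way. NDUFA7 and NDUFA10 were called higher and NDUFS3 lower, and most intervals stay inside the dotted lines.

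How small a change could be seen differed by gene. The smallest absolute test statistic of any called gene was 2.88, so each SE sets the smallest change that would have been called. For the 47 genes this limit had a median of 0.22 on the log2 scale, from 0.13 for NDUFS6 to 1.12 for NDUFA9. A 1.5-fold change (0.58 on the log2 scale) was callable in 41 genes and not in 6. The 95% interval of the fold change stayed within 1.5-fold either way in 41 genes. The intervals that reached further were those of NDUFA7 and NDUFA10, which were called, and of NDUFV3, NDUFA9, NDUFAF5 and NDUFA4L2, which were not. At an unadjusted p under 0.05, 5 of the 47 were higher and 12 lower (10.6% and 25.5%), against 7.92% and 9.64% of all listed genes. Among the 1944 genes between the members' quartiles of mean count the shares were 10.3% and 23.4%, close to those of the members.

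The 7 nuclear core subunits form the catalytic matrix arm, with the redox centres. In the authors' deposited table, 6 of the 7 values were below 0, the median being -0.09; recentring on abundant genes turned NDUFV1 to a small positive value. NDUFS3, a subunit of the quinone module, the part of the matrix arm that hands electrons to ubiquinone, had a log2 fold change of -0.30 (SE 0.05, adjusted p = 1.81e-06) by the authors' deposited table, which is 0.811 times the empty vector level. Its mean normalized count was 2073, and with equal weight for both groups this implies 2289 in empty vector and 1857 in BTG2 libraries. NDUFS3 was called under every alternative run except those that set a minimum change of 0.5 on the log2 scale.

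NDUFS8 and NDUFS7, also of the quinone module, were not called. NDUFS8, which carries a pair of iron-sulphur clusters, stood at -0.18 (SE 0.07, adjusted p = 0.0889) by the authors' deposited table. NDUFS7, which carries the last cluster before ubiquinone, stood at -0.07 (SE 0.05) by the authors' deposited table. At the NADH-binding end none of the 3 core genes was called. NDUFV1, which binds NADH and the flavin, had a log2 fold change of -0.00 (95% interval -0.11 to 0.11) by the authors' deposited table. NDUFV2, its iron-sulphur partner, stood at -0.09 (interval -0.20 to 0.03) and NDUFS1, the largest core subunit, at 0.10 (interval -0.16 to 0.35) by the authors' deposited table. The intervals of all 3 include 0.

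Accessory subunits of the matrix arm had the highest median of the role groups. Of these 9 genes 6 had positive log2 fold changes, the median was 0.19, and 1 was called, NDUFA7. NDUFA7, an accessory subunit of the matrix arm, rose by 0.62 on the log2 scale (SE 0.12, adjusted p = 4.93e-06) by the authors' deposited table, or 1.54-fold. Its mean count of 420 implies about 331 in empty vector and 508 in BTG2 libraries. NDUFV3, an accessory subunit at the NADH end, stood at 0.49 (SE 0.21, adjusted p = 0.151) and NDUFA5, a small subunit beside the quinone module, at 0.27 (SE 0.10, adjusted p = 0.0880) by the authors' deposited table. Neither passed the test over all genes, although NDUFA5 did after recentring on abundant genes. NDUFA6, which docks the acyl carrier protein on this arm, had 0.23 (SE 0.15) and NDUFA2, a thioredoxin-like subunit, 0.19 (SE 0.11) by the authors' deposited table.

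The remaining matrix-arm genes lay near or below 0. NDUFA12, a late-joining subunit, stood at -0.16 (SE 0.07, adjusted p = 0.200) and NDUFS4 at -0.07 (SE 0.10) by the authors' deposited table. NDUFS6, a zinc-binding subunit, had the smallest SE of the family, 0.04, and a log2 fold change of -0.01 (interval -0.10 to 0.07) by the authors' deposited table, turned positive by recentring. NDUFA9, a short-chain dehydrogenase relative at the junction of both arms, was the least precise, at 0.04 with an interval from -0.72 to 0.81 in the authors' deposited table.

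In the proximal membrane arm 1 of 9 accessory genes was called. NDUFA10, a subunit with a nucleoside-kinase-like fold, rose by 0.62 on the log2 scale (SE 0.13, adjusted p = 4.02e-05) by the authors' deposited table, or 1.54-fold, from an implied 306 to 470. Without it the 8 others ran from -0.21 to 0.07. NDUFC1, a single-pass membrane subunit, was the lowest, at -0.21 (SE 0.07, adjusted p = 0.0646) by the authors' deposited table, and it passed when abundant genes alone were tested. NDUFA13, also known as GRIM-19 and the most abundant member with a mean count of 5335, and the membrane subunit NDUFA11 both stood at -0.09 (SE 0.04 and 0.05) by the authors' deposited table. NDUFS5 (0.07, SE 0.05) and NDUFA3 (0.04, SE 0.06) were the next highest after NDUFA10 in the authors' deposited table.

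The 12 genes of the distal membrane arm, the NDUFB series with the acyl carrier protein NDUFAB1, held no called gene. By the authors' deposited table, 0 of 12 were called and all 12 intervals stayed within 1.5-fold. At an unadjusted p under 0.05, 3 of them, NDUFAB1, NDUFB4 and NDUFB10, were lower and 0 higher. NDUFAB1 stood at -0.12 (SE 0.06, adjusted p = 0.244) and NDUFB4 at -0.12 (SE 0.06, adjusted p = 0.262) by the authors' deposited table. Of the 12, 11 had negative log2 fold changes, from -0.18 for NDUFB6 to -0.02 for NDUFB9, and NDUFB2 stood at 0.00. Negative values were also the majority among those 1944 genes (63.9%) and among all listed genes with a mean count of at least 1000 (66.0%). NDUFB2 was the gene with the median log2 fold change of the whole table. Recentring on abundant genes turned NDUFB3, NDUFB7 and NDUFB9 to small positive values.

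None of the 8 NDUFAF assembly factors, which guide the complex together and leave before it is finished, was called in the authors' deposited table. At an unadjusted p under 0.05, NDUFAF8 was higher and NDUFAF2 and NDUFAF3 lower. NDUFAF3, an early assembly factor of the quinone module, had the lowest value, -0.28 (SE 0.11, adjusted p = 0.0874), while its partner NDUFAF4 stood at 0.19 (SE 0.11, adjusted p = 0.406) by the authors' deposited table. NDUFAF2, a relative of NDUFA12 that precedes it on the complex, stood at -0.23 (SE 0.11, adjusted p = 0.271) by the authors' deposited table. NDUFAF5 and NDUFAF7, enzymes that modify core subunits, stood at -0.21 (SE 0.31) and 0.00 (SE 0.20) by the authors' deposited table. NDUFAF1, a membrane-arm assembly factor, had 0.24 (SE 0.16), NDUFAF6 0.09 (SE 0.21) and NDUFAF8, a partner of NDUFAF5, 0.20 (SE 0.08, adjusted p = 0.151) by the authors' deposited table. NDUFA4 stood at -0.17 (SE 0.11) and its paralogue NDUFA4L2 at -0.29 (SE 0.34) by the authors' deposited table, neither of them called.

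Of assembly factors with other names 14 were listed, and 0 were called in either direction in the authors' deposited table. At an unadjusted p under 0.05 only DMAC2 was higher and 0 were lower, and the median was 0.06. DMAC2, a distal-arm assembly factor, stood at 0.24 (SE 0.10, adjusted p = 0.151), TMEM70 at -0.20 (SE 0.11, adjusted p = 0.327) and ACAD9, a member of the intermediate assembly complex, at 0.22 (SE 0.12, adjusted p = 0.334) by the authors' deposited table.

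**Figure D2:**
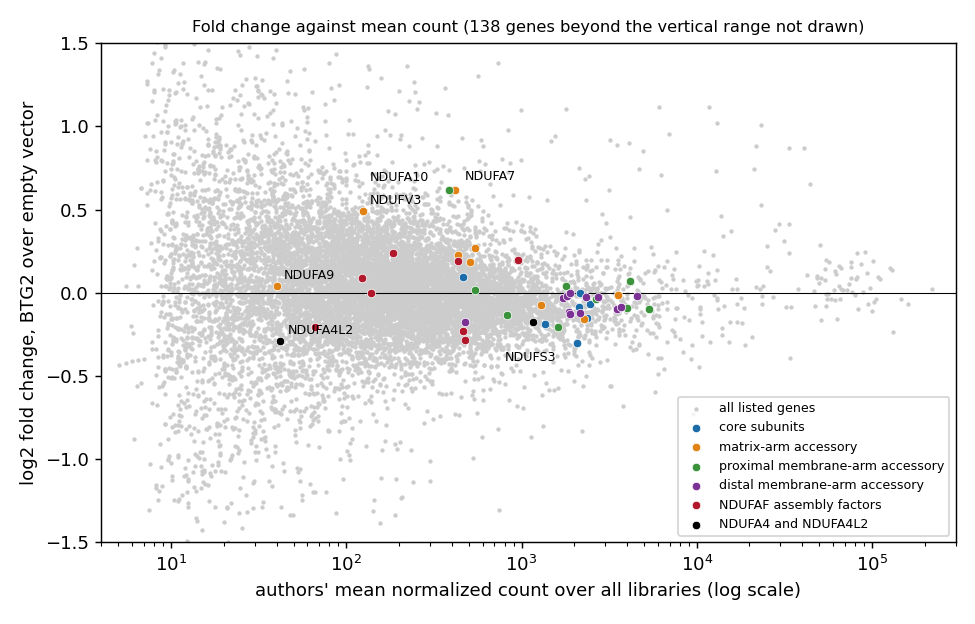
The authors' mean normalized count over all libraries (x axis, log scale) against the log2 fold change of BTG2 over empty vector (y axis) for the listed genes (grey; 138 beyond 1.5 either way are not drawn) and the NDUF-named genes (coloured by role). The 27 members with mean counts of at least 1000 lie close to 0 and mostly below it, whereas NDUFA7, NDUFA10 and NDUFV3 stand above 0 at lower counts.

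The sign of the fold change differed between abundant and less abundant members. Of the 27 members with a mean count of at least 1000, 24 lay below 0 and 3 above, and their median was -0.08; recentring on abundant genes turned 5 of the 24 positive. Of the 20 below 1000, 6 were negative and 14 positive, with a median of 0.09. Among all 1072 listed genes with a mean count of at least 1000, 66.0% were negative, with a median of -0.06. Among the 6032 listed genes from 100 to 1000, 51.2% were negative, with a median of -0.01, and the 17 members in that range had 4 negative and 13 positive values with a median of 0.19. Across the 47 genes Spearman's rho of mean count with log2 fold change was -0.247, a description over genes that share their libraries.

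Members were also grouped by the annotated length of the 3′ UTR. Lengths were taken from the principal transcript of each gene in GENCODE release 29, which need not be the form these cells express, and the classes were set after the values were seen. Of 20 members with a 3′ UTR under 150 bases, 18 were negative and 2 positive, at a median mean count of 2296. Of 18 members from 150 to under 1000 bases, 10 were negative and 8 positive, at a median mean count of 891. Of 9 members with 1000 bases or more, 2 were negative and 7 positive, at a median mean count of 434. The long class holds NDUFA10, with 3749 annotated bases, whereas the 3′ UTR of NDUFA7 has 224 and that of NDUFS3 has 84. Over all listed coding genes 57.6% of 904 in the short class, 56.5% of 4232 in the middle class and 47.4% of 5348 in the long class were negative. Among those with a mean count of at least 1000 the shares were 62.9%, 72.2% and 64.5%, and the short and long classes lay close together there. Spearman's rho of 3′ UTR length with log2 fold change was 0.348 across the 47 genes, whose mean counts also differed between the classes.

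Levels differed far more between genes than between groups. To compare genes, the authors' mean normalized count was divided by coding length in kb, since untranslated ends vary between annotated forms. On that scale the 47 genes had a median of 2618 and ran from 35.5 for NDUFA9 to 13096 for NDUFS5, a 369-fold range. Proximal and distal membrane-arm genes were the highest, with medians of 7091 and 6092 counts per kb. Core genes had a median of 2171 and matrix-arm accessory genes one of 1555 counts per kb. Without the division the order differed, with median mean counts of 2135 for core, 2023 for distal and 1787 for proximal genes. The order of these roles thus depends on the scale. NDUFAF genes were lower, with a median of 507 counts per kb, and NDUFAF8, at 4285, was the exception among them. Within the core, NDUFS1 stood at 212 counts per kb against 1541 for NDUFV1, the next lowest. No SD over libraries can be given for these levels, so the order of neighbours is not resolved.

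**Figure D3:**
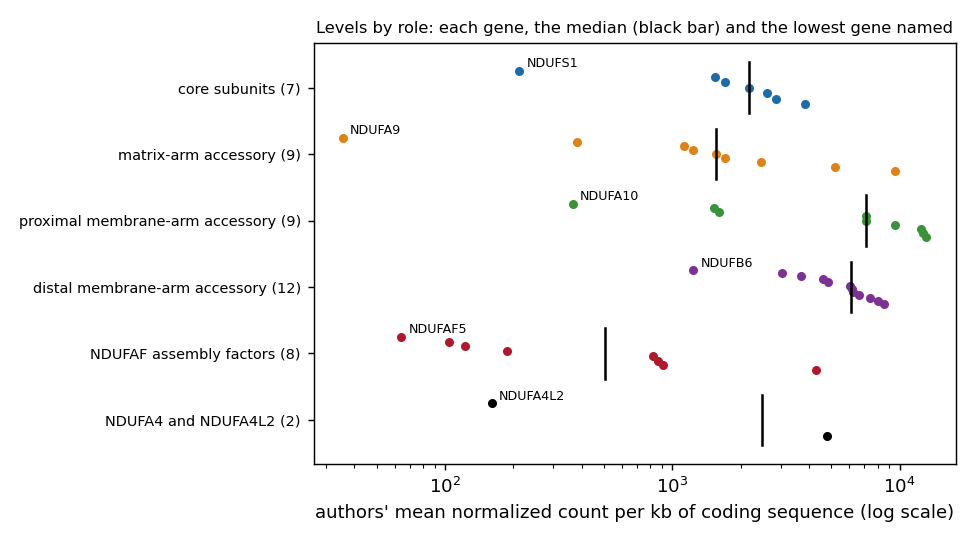
The authors' mean normalized count per kb of coding sequence (x axis, log scale) for each NDUF-named gene by role, with a black bar at each median and the lowest gene of each role named. NDUFA9, at 35.5, lies apart from the other matrix-arm genes, and the membrane-arm medians of 7091 and 6092 are the highest on this scale.

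NDUFA9 stood out in level, with a mean count of 40.2 against a median of 1669 for the other 46. Other annotated genes on the same strand, none of them listed in the table, overlap 10.6% of its exonic bases over all annotated forms. The largest overlap, with AC005833.1, spans 1103 bases, beside a coding length of 1131 bases for NDUFA9. The part of this overlap in the count was not tested. The annotated principal forms of NDUFA9 and NDUFS1 carry 7212 and 9371 bases of 3′ UTR. Whether the library reads were long or short is unsettled, and the part of transcript length in these levels was not tested. The 2 genes that rose were also among the less abundant subunits, with NDUFA7 at 1238 and NDUFA10 at 364 counts per kb.

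NDUFA7, NDUFA10 and NDUFS3 were placed on the genome with GENCODE release 29 on hg38. NDUFA7 (ENSG00000267855.6) lies on chromosome 19 from 8308768 to 8321396 on the minus strand. Of its exonic bases over all annotated forms 32.3% lie in another coding gene on the same strand, AC010323.1, which is not listed. These are 456 bases, beside 601 in the principal transcript. The 5′ end of NDUFA7 meets that of RPS28 on the other strand. NDUFA10 (ENSG00000130414.13) lies on chromosome 2 from 239892450 to 240025402, minus strand, and shares no exonic base with another annotated gene. NDUFS3 (ENSG00000213619.11) lies on chromosome 11 from 47565336 to 47584562, plus strand. Over all annotated forms it shares 19.7% of its exonic bases with PTPMT1, a mitochondrial phosphatase gene on the same strand. These are 721 bases, beside 958 in the principal transcript. PTPMT1 had a mean count of 266 and a log2 fold change of -0.13 (SE 0.15) by the authors' deposited table. Reads from bases shared on the same strand cannot be told apart by strand, so NDUFA7 and NDUFS3 are less certain than NDUFA10. The kit is directional, but no source used here states whether the counts were stranded. That bears on bases shared with the opposite strand: 89 of NDUFA7 with RPS28 (mean count 13280) and 234 of NDUFS3 with CELF1 (mean count 286). The part of these overlaps in the counts was not tested.

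Many members sit head to head with another gene. In GENCODE release 29 23 of the 47 have the start of a coding gene on the opposite strand within 1000 bases, 24 pairs in all, of which 19 neighbours were listed. Starts were taken as the outer ends of the annotated genes, which need not be the starts used in these cells. Of those neighbours 2 were called in the authors' deposited table: the cyclin gene CCNE2 beside NDUFAF6, at -0.52 (SE 0.15, adjusted p = 0.0107), and the splicing regulator gene RBM10 beside NDUFB11, at 0.36 (SE 0.12, adjusted p = 0.0334). In neither pair was the member called, with NDUFAF6 at 0.09 and NDUFB11 at -0.08. By the same rule 3.64% of all listed genes were called higher and 4.47% lower. With 2 called among 19 listed neighbours, a difference from these shares cannot be judged. Of the called members, NDUFA7 faces RPS28, a ribosomal protein gene at -0.10 (SE 0.07) per the authors' deposited table. From its outer end NDUFS3 faces CELF1, an RNA-binding protein gene at 0.42 (SE 0.15, adjusted p = 0.0622) per the authors' deposited table. The RefSeq start of NDUFS3 used below lies more than 1000 bases inside that gene, so this pairing rests on the longer annotated form. KBTBD4, also on the opposite strand, shares 6 exonic bases with NDUFS3 and stood at -0.24 (SE 0.20). In 13 of the 19 listed pairs the signs of both fold changes were opposite, the pair of NDUFS3 and CELF1 among them. Over all listed genes 49.9% were negative. Many signs in these pairs are uncertain, as for NDUFAF7 (0.00, SE 0.20) and for TATDN1 beside NDUFB9 (0.02, SE 0.09). The count is therefore no result about such pairs.

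The sequences before the starts of 3 called genes are shown to set the genes that rose beside one that fell. They are the 250 bases before the RefSeq start on GRCh38.p14, 5′ to 3′ on the gene's strand. The NDUFS3 start lies inside the longer GENCODE gene. Capitals mark letters of the motifs searched on both strands: CCGGAAG (ETS factors such as GABP), TGACGTCA (CREB), CACGTG (E-box), GGGCGG (Sp1), GCGCA followed by any base and GCGC (NRF1), AAGATGGC (YY1) and CCAAT.
NDUFA7 (chr19:8321376-8321625, minus strand): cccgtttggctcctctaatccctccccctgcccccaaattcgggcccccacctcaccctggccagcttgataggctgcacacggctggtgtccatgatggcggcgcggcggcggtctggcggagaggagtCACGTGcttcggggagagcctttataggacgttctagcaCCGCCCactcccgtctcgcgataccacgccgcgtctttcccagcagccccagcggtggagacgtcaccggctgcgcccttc
NDUFA10 (chr2:240025343-240025592, minus strand): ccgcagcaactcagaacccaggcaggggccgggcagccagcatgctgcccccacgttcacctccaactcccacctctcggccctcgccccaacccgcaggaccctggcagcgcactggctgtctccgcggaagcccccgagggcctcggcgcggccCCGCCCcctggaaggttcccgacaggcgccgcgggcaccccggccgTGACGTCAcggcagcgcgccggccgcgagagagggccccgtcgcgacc
NDUFS3 (chr11:47578824-47579073, plus strand): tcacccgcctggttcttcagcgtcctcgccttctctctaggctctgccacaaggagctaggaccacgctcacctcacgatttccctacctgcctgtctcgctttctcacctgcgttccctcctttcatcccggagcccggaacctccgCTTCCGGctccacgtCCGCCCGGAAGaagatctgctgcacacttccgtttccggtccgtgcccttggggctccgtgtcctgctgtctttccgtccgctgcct

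All 3 windows held the Sp1 letters, 94 bases before the start in NDUFA10, 87 in NDUFS3 and 81 in NDUFA7. In NDUFS3 they overlap the second of a pair of ETS matches, 102 and 83 bases before the start. The windows of the genes that rose differ from each other: NDUFA7 has an E-box 120 bases before its start and NDUFA10 a CREB site 48 bases before. Of the 39 members with a window 5 held the NRF1 letters (12.8%, against 13.3% of 9026 listed genes with a window) and 7 the ETS letters (17.9% against 20.8%). The Sp1 letters were in 24 (61.5% against 75.1%), CCAAT in 11 (28.2% against 42.1%), the E-box in 4 (10.3% against 11.7%), the CREB letters in 2 (5.13% against 3.63%) and the YY1 letters in 0 (against 2.52%). A gene was counted if any of its windows matched. These are matches of letters before the start and say nothing of binding or of bases after the start.

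The 7 mitochondrially encoded subunits all had positive values, and 5 of 7 rose in the authors' deposited table against 3.64% of all listed genes, with a median of 0.80 and a range from 0.36 to 1.01, the latter for MT-ND1. A test of the difference between nuclear and mitochondrial genes was not made, since values per library were not analysed here.

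Among the other nuclear respiratory genes complex II had 4 calls. Of its 8 subunit and assembly genes 4 fell and 0 rose in the authors' deposited table, with a median of -0.18, against 4.47% lower over all listed genes and 12.0% lower among those between the members' quartiles of mean count. These were the membrane anchors SDHD (-0.38, SE 0.09) and SDHC (-0.23, SE 0.06), the iron-sulphur subunit SDHB (-0.22, SE 0.07) and the assembly factor SDHAF4 (-0.45, SE 0.15), as the authors' deposited table gives them. Complexes III to V together had 40 listed genes, of which 1 fell and 0 rose in the authors' deposited table, with a median of -0.00. The one that fell was ATP5F1B, the catalytic beta subunit of ATP synthase, at -0.21 (SE 0.03, adjusted p = 1.85e-09) by the authors' deposited table. Of 12 listed regulators of mitochondrial biogenesis 0 were called in the authors' deposited table, with 1 higher and 1 lower at an unadjusted p under 0.05. PPRC1, a relative of the coactivator PGC-1, stood at 0.43 (SE 0.15, adjusted p = 0.0530) and TFAM, which packages mitochondrial DNA, at -0.26 (SE 0.10, adjusted p = 0.105) by the authors' deposited table.

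**Figure D4:**
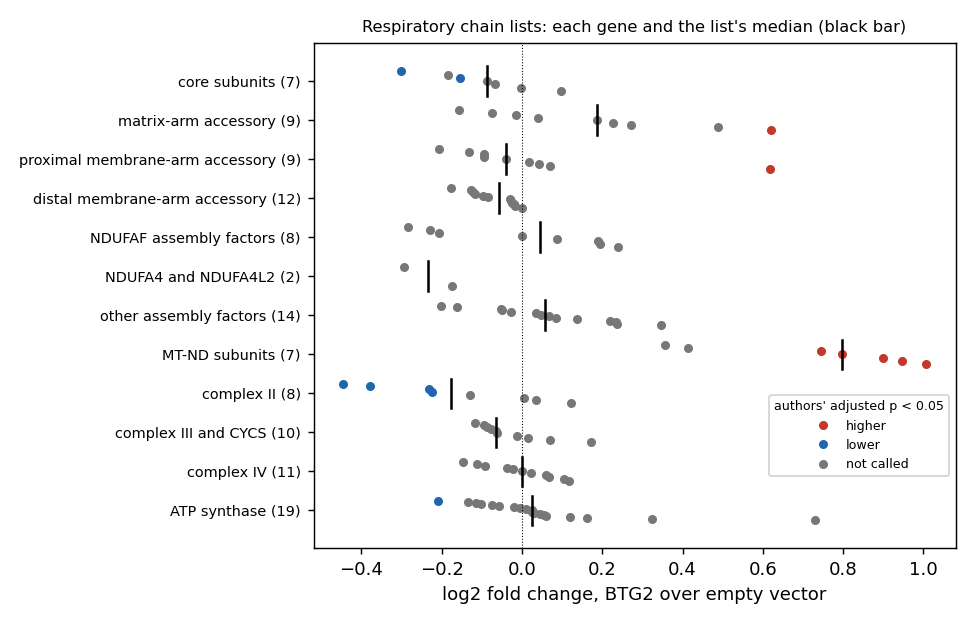
The log2 fold change of BTG2 over empty vector (x axis) of each gene in the NDUF role groups and in other respiratory chain lists, with list sizes in brackets, a black bar at each median and colour for the call. The MT-ND median of 0.80 stands to the right of every NDUF gene, and the distal membrane-arm genes lie between -0.18 and 0.00.

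Processed copies are common in this family. GENCODE release 29 names 59 NDUF pseudogenes, which belong to 19 of the 47 members, with 12 each for NDUFA5 and NDUFB4, and 0 of the 59 were listed in the table. The median log2 fold change was -0.03 in the 19 members with a named copy and -0.03 in the 28 without. None of the 4 called genes has a named copy. Reads of near-identical copies can be split by counting, so the levels of NDUFA5, NDUFB4 and the other parents are less certain.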

How the data were processed

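Poly(A) RNA of MOLM13 cells was compared between 2 BTG2 and 2 empty vector libraries. The submitters' processing notes name minimap2 and hg38. The labels describe a directional kit with paired short reads, whereas the series title speaks of long reads, so which was counted is unsettled. No source used here names the counting program, its filter or its annotation. Per the file headers, the authors deposited a mean normalized count (a signal pooled over libraries), log2 fold changes with standard errors, a test score, p-values and adjusted p-values. Depth per library is unknown. The labels do not say that replicates were separate cultures, so p-values may reflect technical spread alone.

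Members and lists were chosen with earlier results of these data known. The values of 1 member are not reported here, although it stays in all counts and medians. A call was the authors' adjusted p under 0.05. Intervals are 95% normal intervals from the deposited standard errors. Group levels were implied from the mean and the fold change with equal weights. Members given with values were those called, those with an absolute log2 fold change above 1 (none), the core and NDUFAF genes, the 2 highest and 2 lowest statistics of each role, and the highest and lowest mean count, besides some chosen after their values were seen. Of other lists, called genes and at most 4 by statistic were named. Calling was tested on simulated data with independent errors and planted changes larger than any member's, which checks the code and not the calls made here. Python 3.11.15, pandas 2.3.3 and scipy 1.17.1 were used. Alternatives were other adjusted p limits, minimum changes, a count filter, recentring, an empirical null and narrower member sets.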

Additional observations from a re-analysis of the deposited data

How the results depend on the processing

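No paired analysis was possible because the table holds no values per library, and for the same reason replicates were not left out in turn. The 2 members called higher became 0 when tested against 0.5 on the log2 scale, and 3 both at an adjusted p limit of 0.1 and after recentring on abundant genes. The 2 called lower became 1 at an adjusted p limit of 0.01, 1 with the estimated null, 1 after recentring on abundant genes, 5 at a limit of 0.1, and 0 both with a minimum change of 0.5 and when tested against 0.5. Where 1 was left it was NDUFS3. Recentring on abundant genes, whose median was -0.03, turned NDUFB3 to 0.0067, NDUFB7 to 0.0030, NDUFB9 to 0.0102, NDUFS6 to 0.0125 and NDUFV1 to 0.0251. The median log2 fold change of the members, -0.0299, stayed negative under each alternative run for it. It was -0.0389 among abundant members and -0.0499 as a mean weighted by precision, but only -0.0032 after recentring on abundant genes. Of 370 values of single members under the alternatives, 350 kept their direction and their side of the threshold. Many of the 350 were fixed in advance, since a stricter limit or a minimum change cannot call a member that was not called. All 4 called members lost their call in the test against 0.5. Precision is limited most for NDUFA9, NDUFA4L2 and NDUFAF5, whose mean counts were under 100.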

Other observations

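Low counts for single genes of a complex were not confined to NDUFA9. In the authors' deposited table ATP5F1A, the alpha subunit of ATP synthase, and ATP5F1C, its gamma subunit, had mean counts of 70.5 and 84.4, against 13986 for the beta subunit ATP5F1B. The log2 fold change of ATP5F1A was 0.73 (SE 0.27, adjusted p = 0.0705) and that of ATP5F1C 0.32 (SE 0.24, adjusted p = 0.572) by the authors' deposited table. These genes were singled out after their values were seen, and the alternatives were not run on them.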
